A study of Mus musculus with 20 samples.

Results

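The genes described here are 10 genes of metal binding and antioxidant defence, Mt1, Mt2, Hmox1, Nqo1, Gclc, Gclm, Txnrd1, Srxn1, Sod2 and Cat, chosen by name from the 54532 genes in the count tables. All 10 were found in the tables. They were measured by RNA-seq in the plantaris, a fast plantar flexor muscle, of male C57BL/6J mice aged 5 months, 10 days after sham surgery or mechanical overload (MOV). In MOV, a part of the gastrocnemius and soleus is taken out and its work falls on the plantaris. Every muscle had received a lentivirus with a CMV promoter and a TurboGFP reporter, which carried either a control construct or a mimic of the muscle microRNA miR-1. Combining surgery with virus gave 4 groups of 5 libraries: control virus with sham surgery (sham control) or overload (MOV control), and mimic virus with either of them (sham mimic, MOV mimic). The control virus went into the left plantaris and the mimic virus into the right plantaris of the same animals, 5 mice for each surgery, so that virus and body side cannot be told apart. The promoter is not confined to muscle fibres, and a mature microRNA is not among the counted genes, so delivery of the mimic was not analysed here.

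Metallothioneins are small cysteine-rich proteins that bind zinc and copper, and their genes are switched on by the zinc-sensing factor MTF1 through metal response elements. Most of the other members are targets of NRF2 (Nfe2l2), a factor that is held in check by KEAP1 and released when cells meet oxidants. Contracting muscle makes superoxide and hydrogen peroxide, which Sod2 in mitochondria and Cat in peroxisomes remove.

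Mt1 and Mt2 lie next to each other on the plus strand of chromosome 8 in GRCm38.p6, Mt2 at chr8:94172618-94173567 and Mt1 at chr8:94178883-94180327. A RefSeq window of 250 bases before to 50 bases after a transcription start was found for 8 of the 10 members. The 2 metallothionein windows are shown because these neighbouring genes of like function had very different counts. The Mt1 window is set on a start inside the gene span given here, and the Mt2 window on the first base of its span. The 2 windows are therefore not placed alike, and their numbers of matches are not a like comparison. Capitals mark the core of the metal response element, searched as TGCACNC or TGCGCNC on both strands.

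Mt1, chr8:94178839-94179138, plus strand: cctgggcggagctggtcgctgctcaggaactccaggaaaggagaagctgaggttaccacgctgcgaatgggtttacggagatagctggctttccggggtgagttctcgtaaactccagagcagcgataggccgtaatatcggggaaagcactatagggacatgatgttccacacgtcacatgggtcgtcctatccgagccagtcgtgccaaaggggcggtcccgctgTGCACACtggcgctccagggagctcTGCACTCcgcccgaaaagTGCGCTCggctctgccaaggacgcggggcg

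Mt2, chr8:94172368-94172667, plus strand: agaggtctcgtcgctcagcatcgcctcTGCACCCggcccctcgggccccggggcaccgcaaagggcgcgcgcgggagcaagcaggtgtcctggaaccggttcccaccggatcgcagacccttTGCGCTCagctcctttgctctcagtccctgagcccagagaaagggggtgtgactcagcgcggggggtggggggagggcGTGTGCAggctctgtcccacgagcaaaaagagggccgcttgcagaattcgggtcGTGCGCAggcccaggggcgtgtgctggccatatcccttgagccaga

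The Mt1 window held 3 matches and the Mt2 window 4. At least 3 matches were held by 1.97% of 32851 RefSeq windows of this length and at least 4 by 0.517%. Gclm, which encodes the modifier subunit of glutamate-cysteine ligase, also held 3, Srxn1 held 1, and no match was found in the windows of Nqo1, Txnrd1, Sod2 and Cat. The antioxidant response element core, searched as TGACNNNGC on both strands, was matched once in the windows of Mt2, Gclm and Srxn1 and in 1 of the Txnrd1 windows. At least 1 match was held by 12.4% of all windows. On the coding strand of each gene the letters were TGACTCAGC in Mt2, GCACCGTCA in Gclm, GCTAGGTCA in Srxn1 and GCTTTGTCA in Txnrd1. In Gclm the antioxidant match overlaps a metal response match. A match is a run of letters and not a measured binding site.

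**Figure D1:**
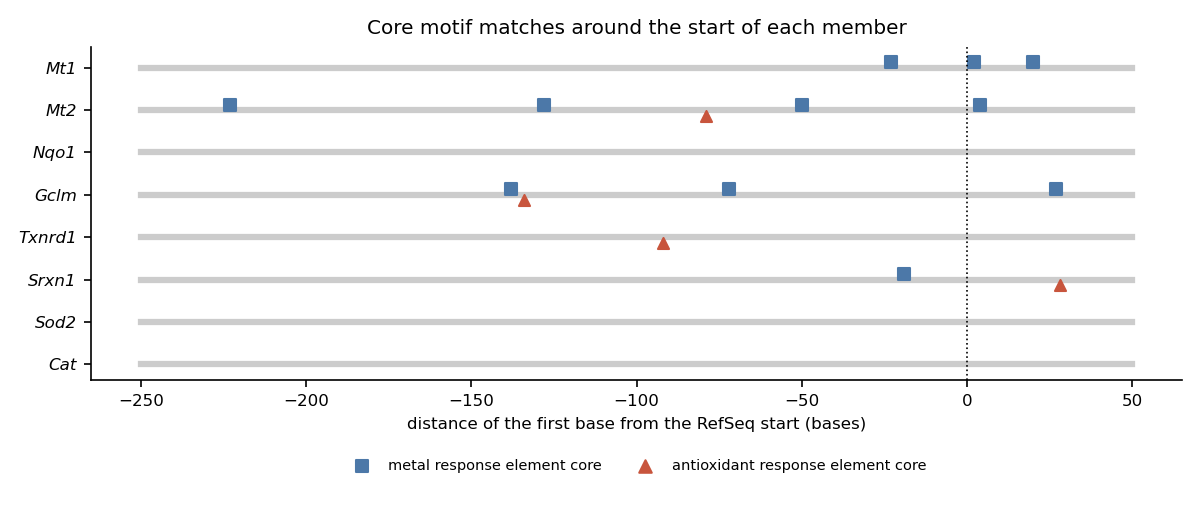
Matches to the 2 core motifs in the RefSeq windows of 8 members. The x axis is the distance of the first base of each match from the transcription start in bases, squares are metal response element cores and triangles are antioxidant response element cores, and a gene with several windows has its matches drawn on 1 line. Mt2 holds 4 squares and Mt1 and Gclm hold 3 each.

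The libraries held between 12036360 and 23056525 counts. Levels are given as CPM, counts scaled to a common library total after TMM normalisation. Between genes they were compared as CPM per kilobase of exon (RPKM). In sham control, Sod2 had the highest level per length, 78.8 ± 24.4 RPKM (SD, n = 5), followed by Cat with 33.6 ± 3.82 RPKM, Mt1 with 28.2 ± 9.14 RPKM and Txnrd1 with 19.9 ± 3.56 RPKM. Srxn1 had 13.03 ± 0.870 RPKM, Hmox1 9.90 ± 6.76 RPKM and Nqo1 8.88 ± 3.83 RPKM. Gclc and Gclm, the catalytic and modifier subunits of the enzyme that makes the first step of glutathione synthesis, had 4.33 ± 0.989 and 4.26 ± 1.00 RPKM. Mt2 was lowest with 0.272 ± 0.489 RPKM. The intervals of mean ± SD of neighbours in this order overlapped except between Sod2 and Cat, between Txnrd1 and Srxn1, and between Gclm and Mt2. The Sod2 transcript has 324 stretches of at least 100 bases and 95% identity elsewhere in the genome, the longest of 1424 bases, and Gclm has 21, so their counts depend on how reads with several alignments were handled. Gclm overlaps Gm46822 and Gm6061, and Txnrd1 overlaps Gm38560 and Eid3 in RefSeq.

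Markers of muscle fibres were high in every library, with a summed level of 12 genes between 82751 and 218356 CPM. In MOV control against sham control the list held 1 lower gene, the fast myosin gene Myh4 (-1.59), and 1 higher gene, the fast myosin gene Myh1 (0.84), at an unadjusted p under 0.05, and neither passed the adjusted threshold by edgeR, while DESeq2 and voom called Myh4. Its median was -0.09. The sham control 1 and sham mimic 1 libraries stood apart. Their fibroblast lists of 8 genes summed to 1295 and 1912 CPM, against at least 4247 CPM in the other 18 libraries, and their muscle fibre lists were the highest of all. The differences of Nqo1 and Sod2 and the mitochondrial and peroxisome lists under overload are given with and without them. In whole muscle, fewer cells of a type and less RNA per cell cannot be told apart.

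**Figure D2:**
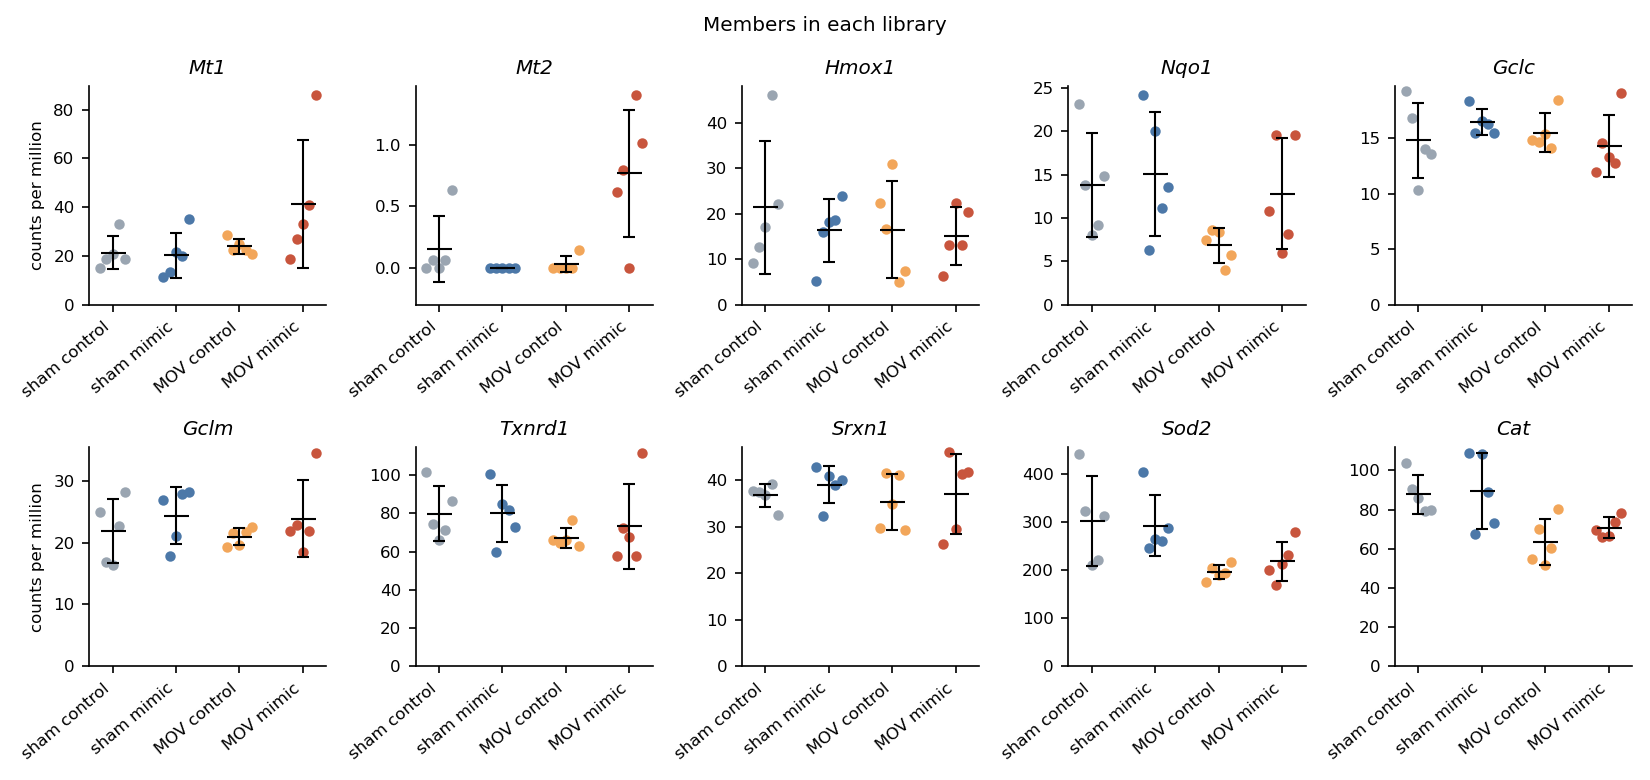
Level of each member in each of the 20 libraries, with each y axis in CPM and the 4 groups along the x axis. Each point is 1 library in replicate order, and the bars are the mean ± SD of 5 libraries. Mt2 lies at or near 0 except in 4 MOV mimic libraries and 1 sham control library, and the Mt1 level of 85.9 CPM in 1 MOV mimic library is the highest of that gene.

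The first comparison asks how overload changed these genes under control virus, MOV control against sham control. None of the 9 members tested passed an adjusted p of 0.05 by edgeR's quasi-likelihood test, in which 0.00668% of 14974 genes passed. The members with the largest differences were all lower in MOV control: Nqo1, Sod2 and Cat. At an unadjusted p under 0.05, 3 of 9 members were lower and 0 higher, beside 9.15% of all genes that were lower. The median log2 fold change of the 9 members was -0.24, and that of all genes tested was 0.04. DESeq2 called Nqo1, Sod2 and Cat lower, with adjusted p of 0.0272, 0.0379 and 0.0492, where it called 3.48% of genes lower. Limma voom with quality weights called Cat, adjusted p = 0.0259, where 3.52% of genes were called lower.

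Nqo1 encodes a quinone reductase that uses NAD(P)H. Its levels in sham control were 23.1, 13.7, 8.08, 9.16 and 14.8 CPM, and in MOV control 7.41, 8.65, 8.40, 3.93 and 5.72 CPM. Of the MOV control libraries 3 lay below every sham control library, and the groups overlapped. The log2 fold change of Nqo1 was -0.997 (SE 0.30, 95% interval -1.65 to -0.35), with an adjusted p = 0.116 by edgeR. Without sham control 1, which had the highest level, it was -0.74.

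Sod2 encodes the manganese superoxide dismutase of mitochondria. Its levels were 441, 323, 211, 219.97 and 312 CPM in sham control and 175, 204, 190.4, 194 and 216 CPM in MOV control. Here 4 MOV control libraries lay below every sham control library, and the other one lay above the lowest of them. The log2 fold change of Sod2 was -0.61 (SE 0.19, interval -1.02 to -0.20), with adjusted p = 0.122 by edgeR, and -0.44 without sham control 1.

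Cat encodes catalase, which breaks down hydrogen peroxide. Its levels were 104, 90.4, 86.1, 79.2 and 79.7 CPM in sham control and 54.6, 69.97, 51.5, 60.5 and 80.2 CPM in MOV control. Again 4 of the 5 MOV control libraries lay below every sham control library. The log2 fold change of Cat was -0.46 (SE 0.14, interval -0.77 to -0.16), with adjusted p = 0.117 by edgeR. Leaving out each library in turn gave between -0.56 and -0.40 and no call at 0.05, the lowest adjusted p being 0.0506.

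The other 6 tested members had intervals that included 0. Txnrd1, the cytosolic thioredoxin reductase, had a log2 fold change of -0.24 (interval -0.53 to 0.04). Mt1 had 0.17 (interval -0.25 to 0.59), and its levels ran from 15.2 to 33.0 CPM in sham control and from 20.7 to 28.4 CPM in MOV control. Gclc had 0.07 (interval -0.29 to 0.44), Gclm had -0.05 (interval -0.40 to 0.30) and Srxn1, which restores overoxidised peroxiredoxins, had -0.05 (interval -0.33 to 0.24). On the linear scale the intervals of these 3 genes reached no higher than 1.36-fold and no lower than 0.755-fold of the sham level. The interval of Hmox1 was the widest, -1.45 to 0.72 around -0.37.

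Hmox1 encodes the inducible heme oxygenase, which is also abundant in macrophages that take up heme. Its levels in sham control were 9.10, 12.6, 17.1, 46.0 and 22.1 CPM, and in MOV control 22.4, 16.7, 31.0, 4.95 and 7.36 CPM. Within both groups the level differed several-fold between libraries, and the groups overlapped. Without sham control 4, which had the highest level, the log2 fold change was 0.12.

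The Hmox1 level is given here beside macrophage markers. The summed level of 14 macrophage genes, led by Lyz2, Ctss and C1qb, was 298 to 1308 CPM in sham control, 311 to 1207 CPM in sham mimic, 329 to 1191 CPM in MOV control and 654 to 1417 CPM in MOV mimic. The 4 libraries with the lowest sums were MOV control 4 and 5 and both sham libraries numbered 1, and they had Hmox1 between 4.95 and 9.10 CPM. The order was not kept throughout. MOV mimic 2 had the highest sum, 1417 CPM, with Hmox1 at 13.1 CPM, MOV mimic 1 had a sum of 977 CPM with Hmox1 at 6.36 CPM, and sham mimic 2 had a sum of 548 CPM with Hmox1 at 16.04 CPM. Sham control 4 had the highest Hmox1 level and also the highest sum of the 6 neutrophil genes, 77.1 CPM. The part of these cells in the Hmox1 levels was not tested. By Pearson's r of log2 CPM over 20 libraries, the genes most like Hmox1 were C5ar1 (0.89), a complement receptor of myeloid cells, Pros1 (0.85) and Igfbp7 (0.83), and the points share library and depth.

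**Figure D3:**
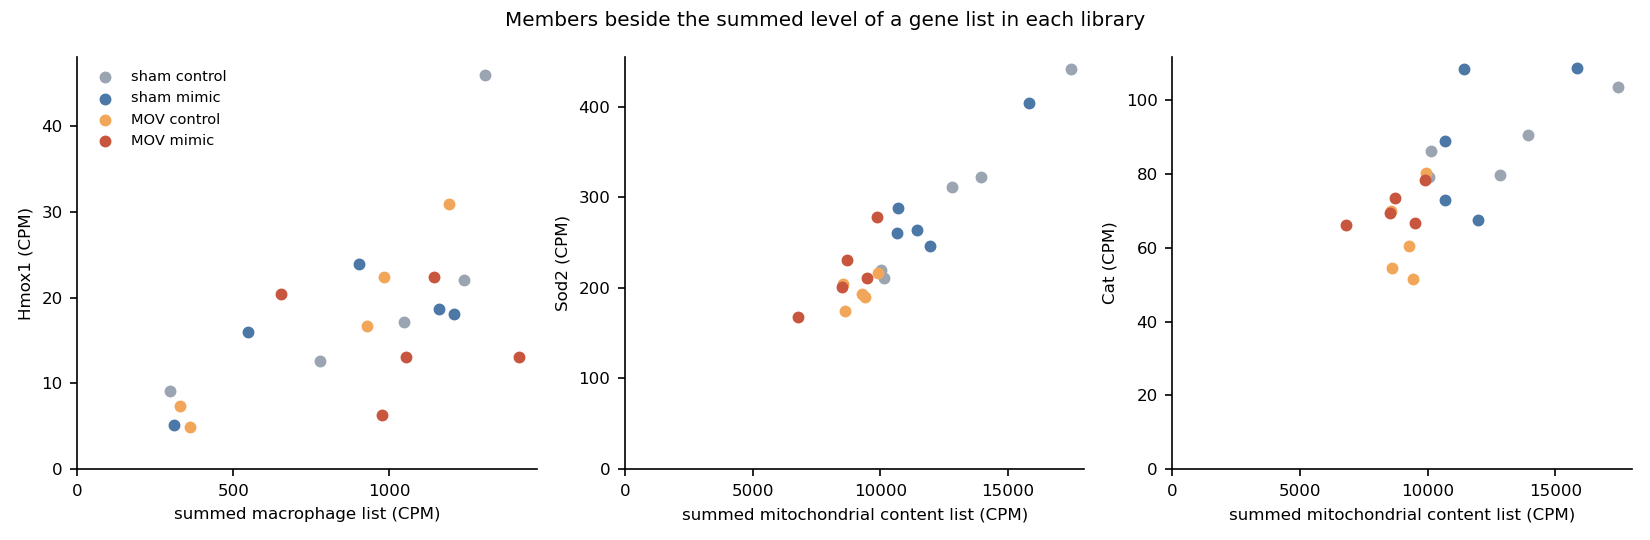
Level of Hmox1, Sod2 and Cat against the summed level of a gene list in each of the 20 libraries, with both axes in CPM starting at 0 and points coloured by group. The 4 libraries with lowest macrophage sums have Hmox1 levels of at most 9.10 CPM, and the 2 sham libraries numbered 1 have the highest Sod2 levels and the highest mitochondrial sums.

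Sod2 and Cat were measured beside the gene lists of their organelles. Of 14 genes of mitochondrial content, 10 were lower and 0 higher in MOV control at an unadjusted p under 0.05, with a median log2 fold change of -0.45. Over all genes, 9.15% were lower at that p. None of the 14 passed the adjusted threshold in edgeR. Without sham control 1, 8 of 14 were lower and the median was -0.34. The smallest p values were those of Sdha, -0.66 (adjusted p = 0.0935), and Sdhb, -0.65 (adjusted p = 0.104), subunits of succinate dehydrogenase. The summed level of the list was 10041 to 17462 CPM in sham control and 8558 to 9924 CPM in MOV control. Sham control 1, with the highest sum, also had the highest Sod2 level. Whether the Sod2 difference went beyond that of mitochondrial genes in general was not tested.

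Of 15 peroxisome genes, 3 were lower and 1 was higher at an unadjusted p under 0.05, with a median of -0.10. Over all genes, 2726 of 14974 reached that p, 1370 of them (9.15%) lower. Hsd17b4, an enzyme of peroxisomal beta-oxidation, had -0.59 (adjusted p = 0.0665), Pex11a -0.70, Ehhadh -0.74 and Acaa1a 0.28, and none passed the adjusted threshold by edgeR. Without sham control 1, Hsd17b4 was the 1 lower gene at an unadjusted p under 0.05, and Acaa1a was still higher. Over the 20 libraries the genes most like Cat were mt-Ty (r = 0.90), a mitochondrial tRNA gene, and Phyh (r = 0.89) and Ehhadh (r = 0.88), both of peroxisomal fatty acid oxidation. Ehhadh is itself a gene of the peroxisome list.

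The regulators of the members did not pass the test by edgeR. Nfe2l2 averaged 52.6 ± 7.64 CPM in sham control and 47.4 ± 12.8 CPM in MOV control, a log2 fold change of -0.14 (interval -0.52 to 0.23). Keap1 had -0.23 (interval -0.50 to 0.05). Bach1, a repressor that competes with NRF2 at Hmox1, had -0.17 (interval -0.46 to 0.12). Mtf1 had 0.21 (interval -0.06 to 0.49). Beside 9.15% of all genes, 2 of 9 NRF2 regulators were lower at an unadjusted p under 0.05. These were Cul3, the ubiquitin ligase scaffold that works with KEAP1, with -0.58 (adjusted p = 0.123), and Sqstm1, an autophagy receptor that binds KEAP1, with -0.37 (adjusted p = 0.245).

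Nos1 was the only gene of any list, and the only gene of the table, that passed the adjusted threshold by edgeR in this comparison. It encodes the neuronal nitric oxide synthase of muscle fibres and fell by 1.70 on the log2 scale (SE 0.22, adjusted p = 0.0461), from 56.0 ± 21.6 CPM in sham control to 17.1 ± 2.01 CPM in MOV control. Leaving out each library in turn gave log2 fold changes between -1.80 and -1.44, and the call was lost in 6 of 10 cases, without MOV control 1, 2 or 4 or sham control 2, 4 or 5, with adjusted p of up to 0.150. The other 12 tested genes of superoxide dismutases and oxidant sources included 1 at an unadjusted p under 0.05, Xdh, which encodes xanthine dehydrogenase, with -0.65. The median of this list was -0.05. Other tools called more genes of the 11 pathway lists. Over all 14974 genes, DESeq2 called 913 (392 higher, 521 lower) and voom 946 (419 higher, 527 lower). Of 138 tested, DESeq2 called 16 (3 higher, 13 lower) and voom 21 (4 higher, 17 lower), and both called Nos1, Cul3, Mgst1, Msrb2, Hsd17b4, Atp5a1, Ndufs1, Sdha and Sdhb lower and Sesn3, Nxn and Cdkn1a higher.

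Other lists of the redox system held genes on both sides, with no call by edgeR. Over all genes, 2726 of 14974 had an unadjusted p under 0.05, 1370 of them (9.15%) lower. Among 19 glutathione enzymes, 4 were lower and 1 was higher at an unadjusted p under 0.05. The microsomal glutathione transferases Mgst1 and Mgst3 had -1.28 (adjusted p = 0.0976) and -0.53 (adjusted p = 0.139), and the others were Gstm1, Glrx and, on the higher side, Gpx1 with 0.49. Among 16 thioredoxins and peroxiredoxins, 2 were higher and 2 lower. Sesn3, a sestrin, averaged 36.3 ± 9.80 CPM in sham control and 88.6 ± 23.6 CPM in MOV control, 1.29 on the log2 scale (SE 0.21, adjusted p = 0.0551). Nxn, nucleoredoxin, had 0.56 (adjusted p = 0.0724), Msrb2 had -0.83 and Prdx5 had -0.35.

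Among 9 genes of NADPH supply, Pgls of the pentose phosphate pathway had 0.37 (adjusted p = 0.120), and Me1 and Idh2, which make NADPH by other routes, had -0.77 (adjusted p = 0.142) and -0.72. Among 11 genes of heme and iron, 4 were lower at an unadjusted p under 0.05: Cd163, the haemoglobin scavenger receptor of macrophages, with -0.95 (adjusted p = 0.113), Hmox2, the constitutive heme oxygenase, with -0.43 (adjusted p = 0.121), Flvcr1 and Slc40a1. The 3 tested red blood cell genes were lower too, Hba-a1 with -1.30, and their sum was 32.6 to 92.9 CPM in sham control and 12.2 to 53.9 CPM in MOV control. Over all genes, 9.15% were lower at an unadjusted p under 0.05. The part of blood cells in the heme and iron genes was not tested. Among 13 further NRF2 targets, Abcc4 had -0.65 and Ephx1 -0.73, and Sesn2 had 0.69.

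Metallothionein genes also respond to zinc and to glucocorticoids. Among 7 metal handling genes, the zinc transporter gene Slc30a2 had -1.28 (adjusted p = 0.153), while Mt3, another metallothionein gene, had 1.06 (SE 0.41, adjusted p = 0.192) and the zinc importer gene Slc39a10 had 0.44. Mt3 averaged 3.08 ± 1.66 CPM in sham control and 6.45 ± 1.38 CPM in MOV control. Among 12 glucocorticoid-induced genes, 2 were higher and 2 lower at an unadjusted p under 0.05. Over all genes, 2726 of 14974 reached that p, 1370 of them (9.15%) lower. Cdkn1a had 1.61 (adjusted p = 0.0630) and Ddit4 0.70, and Klf9 had -0.55 (adjusted p = 0.125) and Tsc22d3 -0.51.

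**Figure D4:**
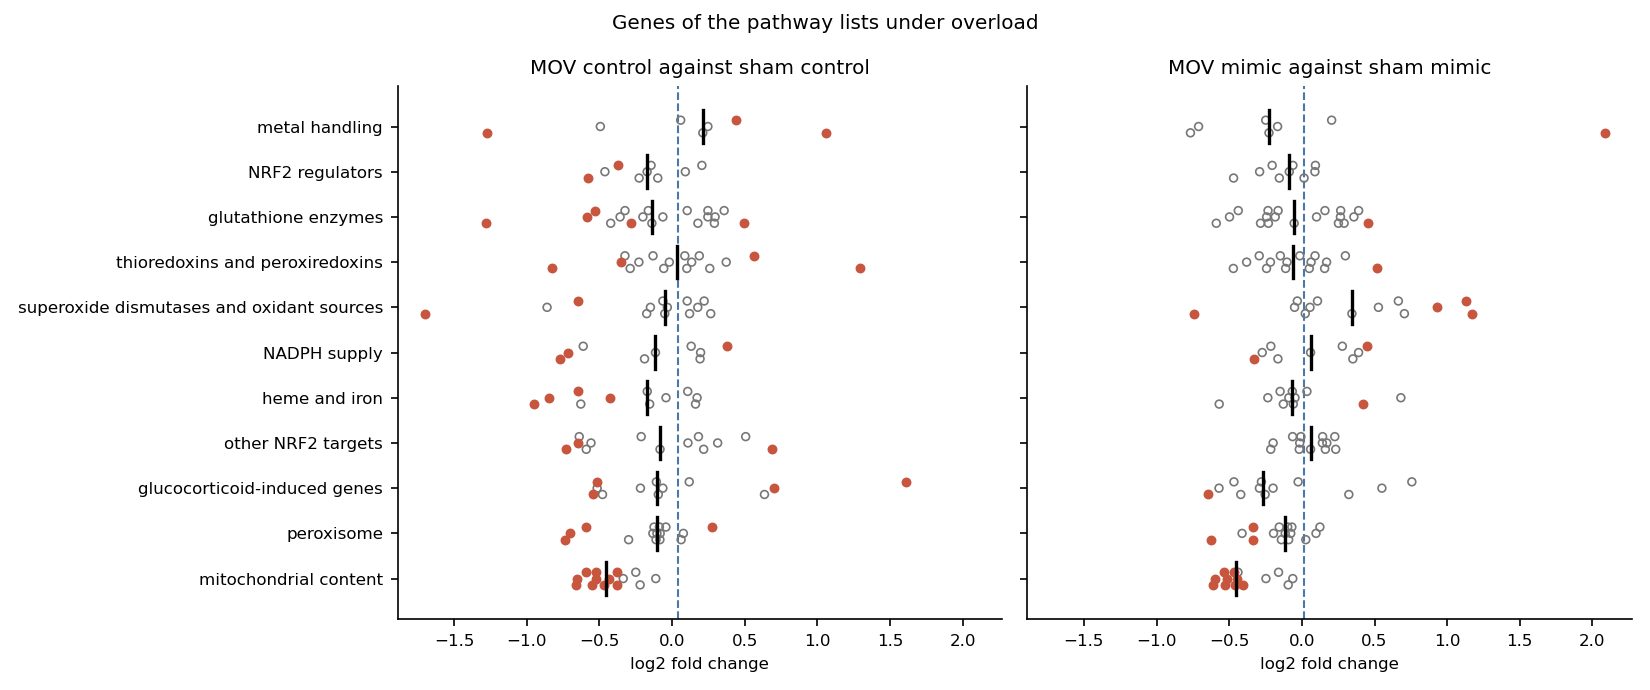
Log2 fold changes of single genes of the 11 pathway lists in both overload comparisons. Filled points have an unadjusted p under 0.05 by edgeR, open points do not, black bars are list medians and the dashed line is the median of all genes tested. In the mitochondrial list 10 points are filled under control virus and 9 under mimic virus, all to the left of 0.

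The second comparison asks how overload changed the members under the miR-1 mimic, MOV mimic against sham mimic. None of the 9 members passed by edgeR, where 0.0% of 14918 genes passed. At an unadjusted p under 0.05, 1 member was lower, Sod2, beside 6.08% of genes, and 1 was higher, Mt1, beside 7.31% of genes. Sod2 ran from 246 to 404 CPM in sham mimic and from 168 to 278 CPM in MOV mimic, a log2 fold change of -0.41 (SE 0.18, adjusted p = 0.346). Without sham mimic 1 it was -0.28. Cat had -0.32 (interval -0.65 to 0.00376) and Nqo1 had -0.21 (interval -1.06 to 0.64), and without sham mimic 1 Nqo1 was at 0.012. Mitochondrial content genes were lower in 9 of 14 cases at an unadjusted p under 0.05, with a median of -0.45. Without sham mimic 1 they were lower in 7 of 14 cases, with a median of -0.33. Of the 15 peroxisome genes 3 were lower at an unadjusted p under 0.05, and 1 without sham mimic 1. In the same comparison 6 of 6 tested T and NK cell markers were higher at an unadjusted p under 0.05, with a median of 2.38, and 5 of 7 endothelial and 3 of 5 adipocyte markers were lower. Of 14 macrophage markers 2 were higher (median 0.52), and of 12 muscle fibre markers 2 were lower (median -0.36). None of these markers passed the adjusted threshold by edgeR. DESeq2 called 4 T and NK cell markers higher and the endothelial markers Cdh5, Kdr and Tek lower, and voom called Tek. Among genes of the pathway lists, DESeq2 called Mt3 higher and Atp5a1, Ndufs1, Sdha and Sdhb lower, and voom called 0. The part of these cell types in the members' values was not tested.

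Mt1 levels were 11.3, 13.1, 21.4, 19.8 and 35.0 CPM in sham mimic and 18.8, 27.0, 33.2, 40.8 and 85.9 CPM in MOV mimic. The log2 fold change was 1.04 (SE 0.40, interval 0.17 to 1.91), with adjusted p = 0.321 by edgeR. The highest value came from MOV mimic 5, and without that library the log2 fold change was 0.56. In the same comparison Mt3 had 2.08 (SE 0.45, adjusted p = 0.257), with 2.54 ± 1.05 CPM in sham mimic and 10.8 ± 5.47 CPM in MOV mimic. The 3 genes most like Mt1 over the 20 libraries were Chst11 (r = 0.82), 1110038B12Rik (r = 0.82) and 2010002N04Rik (r = 0.79).

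The third comparison asks how the mimic changed the overloaded muscle, MOV mimic against MOV control. The muscles of these 2 groups came from the same 5 mice, and the fit treated them as independent. None of the 9 members passed by edgeR, and 0.0% of 15220 genes did. DESeq2 called 3 genes, and with the replicate number as a block, a fit chosen after seeing the data, it called 127 (84 higher, 43 lower), with 0 members called in either fit. At an unadjusted p under 0.05, 2 members were higher, Mt1 and Nqo1, beside 2.46% of genes. The mean of Mt1 was 41.1 ± 26.3 CPM with the mimic and 23.8 ± 2.96 CPM without it, a log2 fold change of 0.80 (SE 0.33, interval 0.10 to 1.51, adjusted p = 0.999). Without MOV mimic 5 it was 0.32. Nqo1 levels in MOV mimic were 10.8, 19.5, 5.98, 8.18 and 19.5 CPM, of which 3 lay above every MOV control library. Its log2 fold change was 0.92 (SE 0.35, interval 0.17 to 1.67, adjusted p = 0.999), and 0.71 without MOV mimic 5. MOV mimic 5 had the highest level of its group in 6 of the 9 tested members. The same held for sham mimic 1 in 6, sham control 1 in 5 and MOV control 5 in 4 of the 9.

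Mt2 was too low for the 2-group tests and is described by its counts. In sham control the counts were 0, 1, 0, 1 and 10, and in sham mimic all 5 libraries were at 0. In MOV control the counts were 0, 0, 0, 0 and 2, and in MOV mimic 12, 17, 0, 19 and 16. At least 10 counts were thus found in 4 of 5 MOV mimic libraries and in 1 of the other 15, a sham control library, and the groups overlapped. Summed over each group, Mt2 had 64 counts of 78918095 in MOV mimic and 2 of 85955244 in MOV control, a ratio of 34.9 with an exact 95% counting interval of 9.26 to 294. Against sham mimic, with a floor of 3 counts over the group, it was at least 25.7-fold higher. The 2 counts of MOV control lie below this floor and were used as they are, so the 2 values cannot be ranked. The intervals cover counting error only. MOV mimic and sham mimic came from different mice. An exact two-sided permutation test of their 5 against 5 CPM values, made after the values were seen, gave p = 0.0476. The smallest p of 5 against 5 values without ties is 0.00794. With sham mimic at 0 in all 5 libraries and MOV mimic in 1, no split of these values gives less than 0.0476. The test restates the pattern that prompted it, and nothing is concluded from it. In fits with no filter on low counts, the adjusted p of Mt2 was 0.512 against MOV control and 0.178 against sham mimic. RefSeq lists no gene that overlaps Mt2, and its transcript has no near-identical copy outside its own stretch of chromosome 8. The search left out the surroundings of each gene, and those of Mt2 hold Mt1. Reads shared with Mt1 or with a nearby copy were therefore not tested. Mt1, its neighbour, had at least 148 counts in every library.

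**Figure D5:**
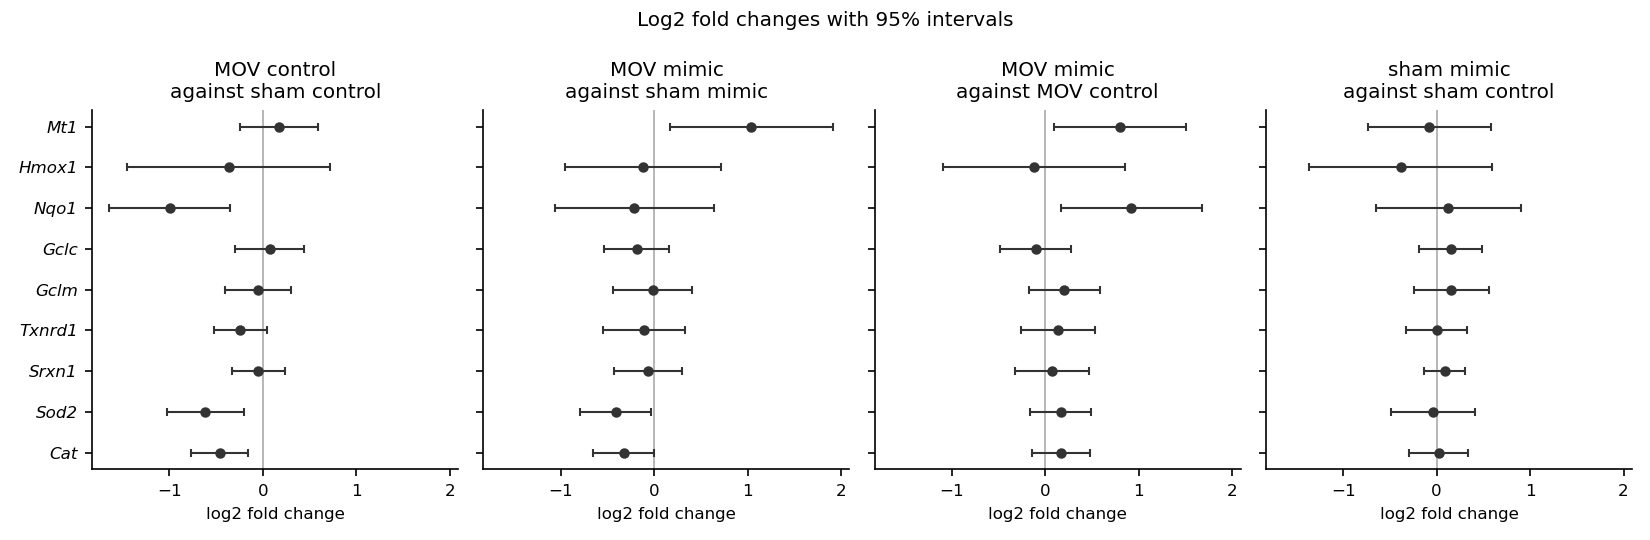
Log2 fold changes of the 9 tested members with 95% intervals in 4 comparisons, by edgeR. The x axis is the log2 fold change and the rows are genes. Under control virus the intervals of Nqo1, Sod2 and Cat lie below 0, and in MOV mimic against MOV control those of Mt1 and Nqo1 lie above 0, and none passed the adjusted threshold.

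Among genes of the pathway lists, MOV mimic against MOV control gave no call by edgeR, by DESeq2 or by voom. DESeq2 with the replicate block called 4 of 139, Nos1 higher and Sesn3, Nxn and Cdkn1a lower, where it called 127 of 15220 genes. With the same block edgeR called 0. Over all genes, 2.46% were higher at an unadjusted p under 0.05, and the median was -0.01. In the superoxide and oxidant list 4 of 13 were higher at that p, with a list median of 0.58. They were Nos1 with 1.11, Nos2, the inducible nitric oxide synthase, with 1.35, and Rac2 and Ncf4, subunits or partners of the phagocyte NADPH oxidase, with 0.97 and 0.89. Without MOV control 4 the higher genes were Nos1 and Nos2, 2 of 13, and the median was 0.54, and without MOV control 5 they were again these 2 and the median was 0.42. The mean log2 CPM of the list was 3.08 and 2.93 in MOV control 4 and 5 and 3.91 to 4.17 in the other 3 libraries of that group, and their macrophage sums were 361 and 329 CPM against 928 to 1191 CPM. In MOV mimic the list had a mean log2 CPM of 3.63 to 4.54. The median of the 14 macrophage markers was 0.56, with 2 of them, C1qc and Itgam, higher at an unadjusted p under 0.05, and it was 0.40 without MOV control 4 and 0.39 without MOV control 5, where only Itgam was higher. The 6 tested T and NK cell markers had a median of 1.16, with 2 of them, Gzmb and Cd8a, higher at an unadjusted p under 0.05, and the sum of the list was 4.06 to 19.9 CPM in MOV control and 13.2 to 42.5 CPM in MOV mimic. DESeq2 with the replicate block, chosen after seeing the data, called C1qc and Gzmb higher among its 127 genes. The part of these immune cells in the oxidant list was not tested. Sesn3 and Nxn had -0.72 and -0.52. Ephx1, microsomal epoxide hydrolase, had 0.69 and Blvrb, a biliverdin reductase, had 0.66.

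The last comparisons ask what the mimic changed without overload and whether its effect depended on surgery. Here too the fits treated the 2 muscles of a mouse as independent. In sham mimic against sham control, 0 of 9 members passed, as did 0.0% of 14746 genes, and 0 of 9 reached an unadjusted p under 0.05, beside 1.72% of genes in either direction. DESeq2 and limma voom called 0 members as well. The log2 fold changes ran from -0.38 for Hmox1 (interval -1.36 to 0.59) to 0.16 for Gclm (interval -0.24 to 0.56). In the interaction of surgery and virus over 20 libraries, 0 of 10 members passed and 0.0% of 16166 genes did. Mt2 entered this fit through the MOV mimic libraries in which it was high, so nothing is read from its test. Of the other 9 members, 0 were higher at an unadjusted p under 0.05, beside 1.3% of genes. The interaction of Mt1 was 0.86 (SE 0.47, interval -0.11 to 1.84, unadjusted p = 0.0802), and 0.40 without MOV mimic 5, and that of Nqo1 was 0.78 (SE 0.52, interval -0.31 to 1.87). The difference between the overload effects under the 2 viruses was therefore not shown for either gene.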

How the data were processed

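Libraries of 20 plantaris muscles, 5 in each of 4 groups, were sequenced. The values deposited by the authors are raw read counts, 1 for each Ensembl gene and library. The study's methods give GRCm38, and the submitters' processing notes name cutadapt 4.4, Trim Galore 0.6.10, HISAT2 2.0.5 and featureCounts 1.5.0-p3. The annotation release, strand setting and treatment of multi-mapping reads are not given in the sources used here, so overlapping and repeated genes are uncertain. Totals were 12036360 to 23056525 counts, with a median of 16940547.5. Symbols were matched for 32640 of 54532 genes.

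From the deposited counts, edgeR 4.0.16 in R 4.3.3 (filterByExpr, TMM, quasi-likelihood test, two-sided, Benjamini-Hochberg adjusted p under 0.05) was run on the 10 libraries of each comparison and on all 20 for the interaction. Log2 CPM used a prior count of 2. The fit was tested on simulated data. Alternatives were DESeq2 1.42.0, limma 3.58.1 voom with quality weights, other size factors, filters and libraries, and the replicate number as a block. RPKM used the exon lengths of GENCODE vM1, and copies were searched in NCBIM37 outside the surroundings of each gene.

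The members and lists were chosen with earlier results of these data known. Named were all members, Nfe2l2, Keap1, Bach1 and Mtf1, from each pathway list under overload with control virus up to 3 called genes in each direction or, with none called, the 2 of smallest unadjusted p, the 3 genes most like Mt1, Hmox1 and Cat, and up to 3 leading markers. Other genes named were picked with their values in view. Each group came from 5 mice. Equal numbers were not stated to mark 1 mouse.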

Additional observations from a re-analysis of the deposited data

Results flagged for a closer look

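In 39 groups of 5 libraries, 1 for each member and group with levels above 0, the highest and lowest library were compared with the nearest of the others, and chance sets a library apart in about 1 of 20 such groups. Mt2 was set apart in sham control 5, with 0.635 CPM against at most 0.0611 CPM in the rest, and in MOV control 5, with 0.143 CPM against 0 in the rest. These are 10 and 2 counts. With the other 4 libraries at 0, any count sets a library apart, so the value in MOV control says nothing beyond its 2 counts, and the chance of 1 in 20 does not hold for counts this low. In MOV mimic 5, Gclm was 34.6 CPM, with the next library at 22.9 CPM, and Txnrd1 was 112 CPM, with the next at 72.4 CPM. Mt1 was also highest there but was not set apart by this measure. Txnrd1 in MOV control 4 was 76.4 CPM, with the next library at 66.2 CPM. Sod2 in sham mimic 1 was 404 CPM, with the next at 288 CPM, and the same library had the highest mitochondrial sum and the lowest fibroblast sum of its group.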

How the results depend on the processing

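Of the members' log2 fold changes, 279 kept their direction and side of the threshold under alternatives other than leaving out a library, 11 reversed sign and 4 came past the threshold. In MOV control against sham control, members called were 3 by DESeq2 and 1 by voom. Genes called there were 913 by DESeq2, 946 by voom, 388 with no filter and 36 (4 higher, 32 lower) with all 20 libraries in the fit, against 1. In MOV mimic against sham mimic they were 223 by DESeq2, 17 by voom, 3 with all 20 libraries and 1 with no filter. In MOV mimic against MOV control they were 3 by DESeq2 and 1 with all 20 libraries, and in the interaction 1 by DESeq2. Leaving out each library gave 0 to 426 genes (426 without sham control 3) under control virus, 0 to 101 under mimic virus (101 without MOV mimic 5) and 0 in the other comparisons, with 0 members called throughout. The members that changed sign, none with a call, were by voom Hmox1 (0.038) and Gclm (0.00715) in MOV control against sham control, Txnrd1 (-0.017) and Srxn1 (-0.14) in MOV mimic against MOV control, and Hmox1 (-0.68), Gclm (-0.15) and Txnrd1 (-0.021) in the interaction. The cause was not tested. Leaving out single libraries turned the sign of these log2 fold changes, none of them called, with the lowest to highest value in parentheses. In MOV control against sham control they were Hmox1 (-0.72 to 0.12), Gclc (-0.032 to 0.18), Gclm (-0.14 to 0.054), Srxn1 (-0.12 to 0.011). In MOV mimic against sham mimic they were Hmox1 (-0.35 to 0.069), Nqo1 (-0.43 to 0.012), Gclm (-0.20 to 0.066), Srxn1 (-0.16 to 0.035). In MOV mimic against MOV control they were Hmox1 (-0.36 to 0.23), Txnrd1 (-0.075 to 0.23), Srxn1 (-0.019 to 0.19). In sham mimic against sham control they were Mt1 (-0.36 to 0.15), Hmox1 (-0.58 to 0.12), Nqo1 (-0.098 to 0.38), Txnrd1 (-0.087 to 0.095), Sod2 (-0.18 to 0.13), Cat (-0.053 to 0.12). In the interaction they were Hmox1 (-0.22 to 0.61), Gclm (-0.14 to 0.12), Txnrd1 (-0.078 to 0.23), Srxn1 (-0.11 to 0.089). Control and mimic libraries of equal number correlated with r of 0.0116 to 0.663 in deviations from group means, over 0.1 in 7 of 10 pairs, and 5 of 10 control libraries and 8 of 10 mimic libraries correlated best with their own number, a hint from the data and not from the design. With a replicate block edgeR called the same numbers of genes and members. In the overload comparisons the block joins different mice of equal number, so it is not a pairing there. Nos1 was not called in MOV control against sham control with this block (log2 fold change -1.64, adjusted p = 0.103). Reversed were Hmox1 in MOV mimic against MOV control (0.034), Txnrd1 in sham mimic against sham control (-0.00121) and Gclm in the interaction (-0.00773). DESeq2 with the replicate block, chosen after seeing the data, called 127 genes in MOV mimic against MOV control and 5 in the interaction, with Hmox1 at 0.057 in the former.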

Other observations

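In MOV control against sham control, no marker of the satellite cell, endothelial, adipocyte or fibroblast lists passed the adjusted threshold by edgeR with its filter. Without MOV control 5, 1 satellite cell gene and 1 adipocyte gene did. DESeq2 and edgeR with no filter called Pax7 higher and Kdr lower, among 913 and 388 genes called. Voom called Pax7 higher and the adipocyte gene Cfd lower, among 946. Over all genes, 2726 of 14974 had an unadjusted p under 0.05, 1370 of them (9.15%) lower. MOV control 4 and 5 had the lowest endothelial sums of all libraries, 185 and 165 CPM, and the lowest fibroblast sums of their group, 5830 and 4247 CPM. Among 6 satellite cell genes, 2 were higher at an unadjusted p under 0.05, Pax7 with a log2 fold change of 1.17 (adjusted p = 0.0630) and Myog with 1.40, and without MOV control 4 only Pax7 was. Among 7 endothelial genes, Kdr with -0.80 (adjusted p = 0.0763), Tek with -0.60 and Pecam1 with -0.49 were lower at that p, also without MOV control 4 or without MOV control 5, when the list median of -0.38 became -0.30 or -0.25. Among 5 tested adipocyte genes, Fabp4 with -0.51 and Cidec with -2.03 were lower, and without MOV control 4 only Fabp4 was. Of the 8 fibroblast genes Dcn was lower with -0.84, also without either library, while the list median of -0.08 became 0.056 without MOV control 4, 0.11 without MOV control 5 and -0.35 without sham control 1, where Pdgfra was lower too. Under mimic virus, the T and NK cell list summed to 5.02 to 12.1 CPM in sham and 13.2 to 42.5 CPM after overload.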
